A study of Rattus norvegicus with 19 samples.

Results

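The genes of fast and slow amino acid transmission were followed in the paraventricular nucleus (PVN) and supraoptic nucleus (SON) of normotensive Wistar Kyoto (WKY) rats and Spontaneously Hypertensive rats (SHR). Members were all genes with an array probe set of a single gene symbol that named a receptor subunit for gamma-aminobutyric acid (GABA), glycine or glutamate, together with Gad1, Gad2, Abat, Slc32a1, Slc17a6 and Slc17a7. This gave 52 of the 14217 genes on the array, measured by 88 of its 31099 probe sets. They comprised 16 GABA-A and GABA-rho subunits, 2 GABA-B subunits, 4 glycine receptor subunits, 4 AMPA, 5 kainate and 7 NMDA receptor subunits, 1 delta receptor, 7 metabotropic glutamate receptors and 6 genes of transmitter synthesis, breakdown and vesicle loading. Several probe sets were present for 26 members, and each gene was then represented by the probe set with the highest mean signal.

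GABA is the main inhibitory transmitter of the hypothalamus and glutamate the main excitatory one, and together they set the firing of the vasopressin and oxytocin neurones and of the neurones of the PVN that drive sympathetic outflow. GABA-A and glycine receptors are chloride channels, AMPA, kainate and NMDA receptors are cation channels gated by glutamate, and GABA-B and metabotropic glutamate receptors act through G proteins. Transcripts of receptors arise in the cells that receive the transmitter, whereas those of Gad1 and Slc32a1 mark GABA neurones and those of Slc17a6 mark glutamate neurones of the hypothalamus.

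RNA came from untreated male inbred rats labelled as 12 weeks old and was hybridised to Affymetrix GeneChip arrays of the rat genome after a round of linear amplification. The PVN was measured on 5 arrays of WKY and 5 of SHR, and the SON on 5 of WKY and 4 of SHR, each array being taken to hold pooled dissected nuclei, so that p-values describe the spread between pools and not between rats. WKY is the normotensive control strain of the SHR, which is a genetic model of essential hypertension, and a strain difference covers all loci at which the strains differ. Median signals of the arrays lay between 35.9 and 46.5, and each array was centred on its median on the log2 scale. The mean correlation of an array with the others of its group was between 0.954 (WKY SON array 3) and 0.980. All levels below are log2 signals in arbitrary units, and signals of different probe sets are not compared with each other.

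The dissections carried different neighbouring tissue. Of 7 ependymal marker genes tested all were lower in the SON, with a summed signal of 1637 to 2195 in WKY PVN and 222 to 287 in WKY SON, and all 9 meningeal markers were higher there, with 389 to 499 and 2659 to 4328. In SHR the same lists had 2145 to 2666 against 233 to 276 and 460 to 491 against 3390 to 8226. The 14 general neuronal markers had medians of SON minus PVN of -0.06 in WKY and -0.10 in SHR, with summed signals of 15202 to 17143 and 13882 to 16765 in WKY. They did not move as 1 group, since 4 were lower and 2 higher in the SON in WKY, and 4 lower and 1 higher in SHR. Their differences ran from -1.40 to 0.37 in WKY and from -1.16 to 0.40 in SHR. Of 7 tested markers of magnocellular and parvocellular neurones 3 were lower and 2 higher in the SON in WKY, with differences from -4.79 to 1.82. In SHR 3 were lower and 1 higher, with differences from -4.66 to 1.93. Lower in both strains were Crh, Trh and Sst. The part of these neurones in the member differences between the nuclei was not tested. In such bulk samples fewer cells of a type and less RNA per cell cannot be told apart.

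A member was tested where 1 or more group means were no lower than 5.32, the median log2 signal over all probe sets. Of the 52 members 28 passed in the PVN and in the comparison of the nuclei, 23 passed in the SON, and 21 were over this limit in all 4 groups. The 28 were 6 GABA-A subunits, both GABA-B subunits, 2 glycine receptor subunits, all 4 AMPA subunits, 3 kainate and 4 NMDA subunits, 3 metabotropic receptors and 4 of the 6 transmitter genes. Gria1, Grik1, Grin2b, Grin3b and Grm4 passed through their PVN signal alone. Gabrb1, a GABA-A subunit over the limit in all groups, had 9.08 ± 0.09 (SD, n = 5) in WKY PVN and 9.11 ± 0.16 (SD, n = 5) in WKY SON.

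The other 24 members had group means between 1.98 and 5.22, and 12 of them lay at the floor of the scale on at least 1 array. Among them was Gad2, the second GABA-synthesising enzyme, with 3.37 ± 0.91 in WKY PVN, 3.64 ± 0.82 in SHR PVN, 2.99 ± 1.03 in WKY SON and 3.15 ± 1.09 in SHR SON. Slc17a7, a vesicular glutamate transporter typical of the cerebral cortex, had 4.44 ± 0.56, 4.54 ± 0.34, 3.87 ± 1.24 and 3.95 ± 0.44 in the same order. For Grin2a, an NMDA receptor subunit, the values were 4.39 ± 0.59, 3.20 ± 0.49, 3.47 ± 0.52 and 4.32 ± 0.72. Grm5, a metabotropic receptor coupled to phospholipase C, had 4.40 ± 0.47, 4.50 ± 0.26, 4.45 ± 0.48 and 4.41 ± 0.31, and Grid1, the delta receptor, had 3.39 ± 1.13, 4.05 ± 0.36, 4.49 ± 0.66 and 3.80 ± 1.37. At such signals a difference was not tested, and low signal of a probe set does not show that a transcript is absent.

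**Figure D1:**
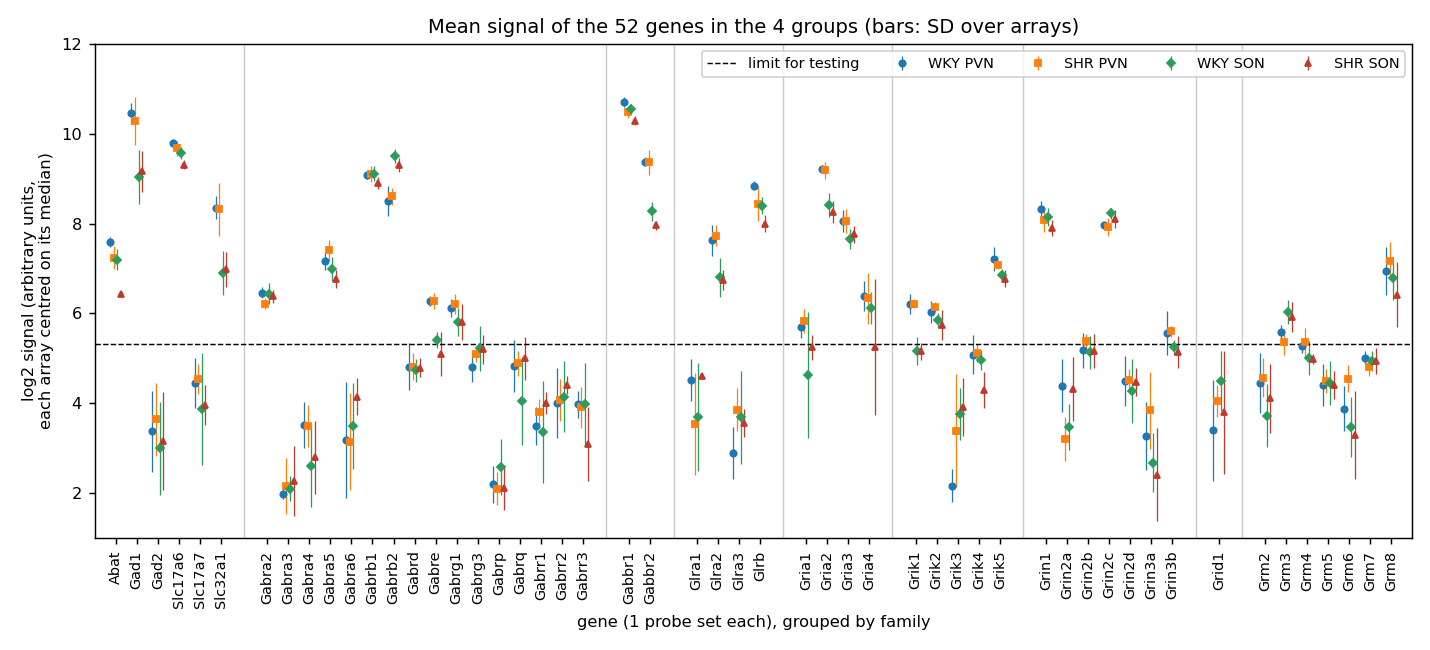
Mean log2 signal (y axis, arbitrary units, each array centred on its median) of the 52 genes, 1 probe set each, grouped by family from left to right (transmitter genes, GABA-A and GABA-rho, GABA-B, glycine, AMPA, kainate, NMDA, delta and metabotropic receptors). Symbols mark the 4 groups, bars are the SD over 4 or 5 arrays, and the dashed line is the limit of 5.32 for testing, which 28 genes reached in at least 1 group.

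The nuclei differed in the amino acid transmitter genes of both strains. In WKY 13 of 28 tested members differed between SON and PVN, 2 of them higher in the SON and 11 lower, where 14.7% of all tested genes were higher and 13.6% lower. In SHR 14 of 28 differed, again 2 higher and 12 lower, where 14.7% of all tested genes were higher and 16.3% lower. The WKY arrays are other arrays than the SHR arrays, but the tests of both strains came from the same fit, with a shared variance for each gene. Called in both strains and in the same direction were 11 genes, 84.6% of the WKY calls and 78.6% of the SHR calls. Such shares were not counted over all tested genes, so whether this overlap is more than that of other genes was not tested. The 9 that were lower in the SON in both strains were Gad1, Slc32a1, Abat, Gabbr2, Gabre, Glra2, Glrb, Gria2 and Grik1, and the 2 that were higher were Gabrb2 and Grm3.

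The median difference of the tested members was -0.30 in WKY and -0.42 in SHR, beside medians of 0.00 and -0.01 over all tested genes. In each strain 24 of 28 tested members had a lower mean in the SON, against 49.8% and 51.7% of all tested genes. The filter admitted 5 members in WKY and 7 in SHR that were below its limit in at least 1 of the nuclei. The 5 admitted through their PVN signal alone had to have a lower mean in the SON in SHR. In WKY this held for all of them but Grin2b and Grm4, whose WKY PVN means of 5.18 and 5.28 were also under the limit. The counts of lower means therefore do not describe all 52 members. In a count added after seeing the data, 26 members (Grin2b and Grm4 drop out) had a mean over all 19 arrays at or over the limit, which does not favour either nucleus. Of these, 22 had a lower mean in the SON in each strain, against 50% and 52.1% of all genes chosen in that way, and their median difference was -0.32 in WKY and -0.45 in SHR. All called members were among the 26. At least a 2-fold difference was reached by 5 of the called members in each strain, and the share of all tested genes that did so was not counted.

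**Figure D2:**
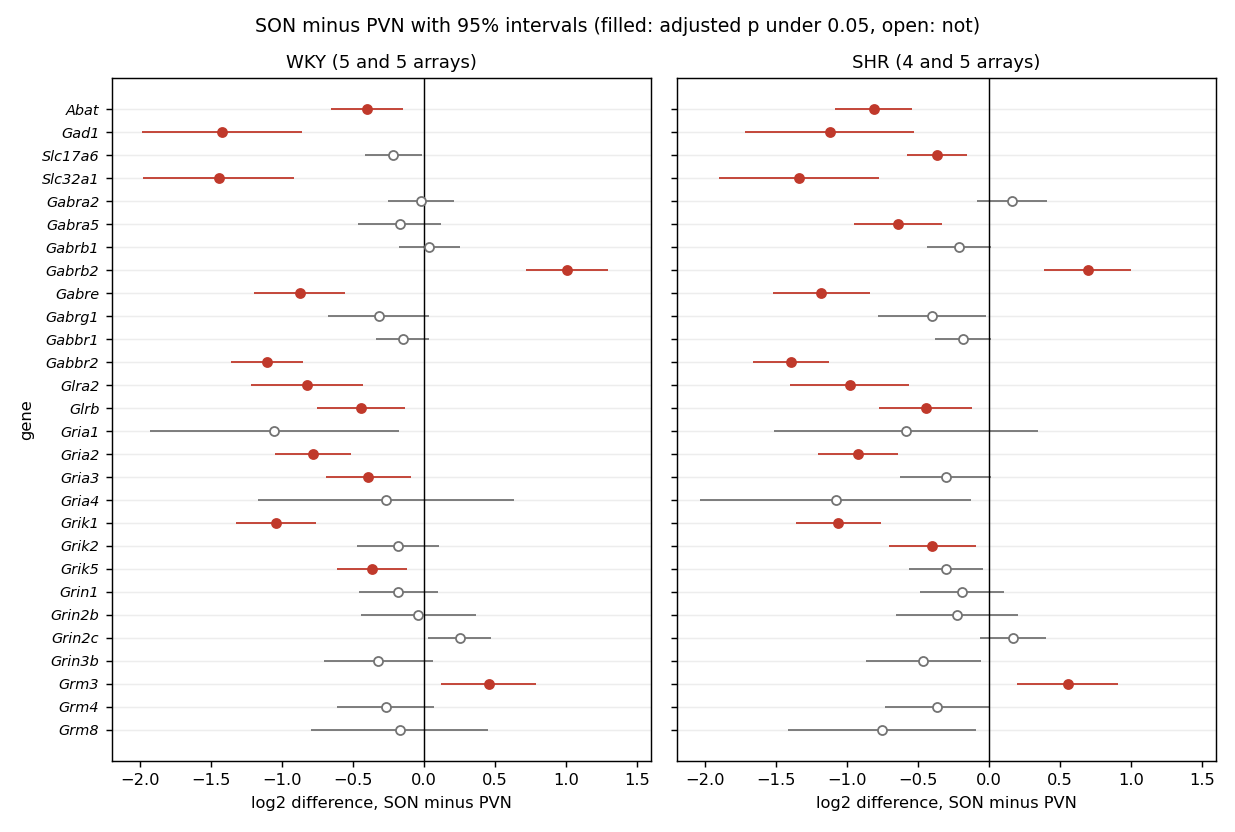
Difference of log2 signal, SON minus PVN (x axis), of the 28 tested genes in WKY (left) and SHR (right), with points for the limma estimate, bars for its 95% interval and filled points for an adjusted p under 0.05. In both panels most points lie to the left of 0, with Gabrb2 and Grm3 as the filled points to the right.

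GABA synthesis and vesicle loading gave the largest differences of the tested members in WKY. Gad1 encodes the larger form of glutamate decarboxylase, the enzyme that makes GABA. Its log2 signal in the PVN was 10.45, 10.70, 10.68, 10.30 and 10.18 on the WKY arrays and 10.93, 10.40, 10.64, 9.72 and 9.74 on the SHR arrays. In the SON it was 9.63, 9.72, 8.80, 8.42 and 8.61 in WKY and 9.11, 9.82, 8.77 and 8.94 in SHR. All WKY SON arrays lay below all WKY PVN arrays, whereas SHR SON array 2 lay above SHR PVN arrays 4 and 5. The difference was -1.43 in WKY (standard error, SE, of 0.27 and adjusted p = 4.91e-04 from limma), a 2.69-fold lower signal, and -1.12 (SE 0.29, adjusted p = 0.00549) in SHR.

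Slc32a1, the transporter that loads GABA and glycine into synaptic vesicles, had 8.27, 8.65, 8.55, 8.31 and 8.0 in WKY PVN and 9.07, 8.48, 8.61, 7.81 and 7.63 in SHR PVN. In the SON the values were 7.40, 7.45, 6.49, 6.44 and 6.76 in WKY and 7.04, 7.51, 6.70 and 6.68 in SHR. The nuclei did not overlap in either strain. The signal in the SON was 2.73-fold lower in WKY, a difference of -1.45 (SE 0.26, adjusted p = 2.35e-04), and 2.52-fold lower in SHR, with -1.34 (SE 0.27, adjusted p = 8.63e-04).

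Gad1 and Slc32a1 also varied together among the arrays of a group. In WKY SON arrays 1 and 2 were highest for both genes, in SHR SON array 2 was highest for both, and in SHR PVN arrays 4 and 5 were lowest for both. Of 8 listed marker genes of inhibitory forebrain neurones on the array 7 were tested, and 4 were lower and 2 higher in the SON in WKY (median -1.39), and 3 lower and 0 higher in SHR (median -0.88). Their summed signal was 2506 to 3038 in WKY PVN, 1795 to 2310 in WKY SON, 2081 to 3523 in SHR PVN and 1710 to 1944 in SHR SON, and Six3 of this list was between 1.83 and 2.73 on all arrays.

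Dlx1, a homeobox gene of forebrain GABA neurones in that list, had 7.62, 7.78, 7.84, 7.51 and 7.31 in WKY PVN and 6.0, 6.27, 5.78, 5.53 and 5.98 in WKY SON. In SHR it had 7.89, 7.87, 7.92, 7.25 and 7.22 in the PVN and 5.61, 6.24, 5.53 and 5.37 in the SON. Within each group Dlx1 was thus highest on array 2 of WKY SON and of SHR SON, and lowest on arrays 4 and 5 of SHR PVN. Penk, the enkephalin precursor, was lower in the SON by -2.35 in WKY and -1.90 in SHR. The 2 genes of the list that were higher in the SON in WKY were Calb2, the calcium-binding protein calretinin, by 0.63 (SE 0.10, adjusted p = 1.37e-04), and Npy, neuropeptide Y, by 0.33 (SE 0.11, adjusted p = 0.0343), and neither was called in SHR. The order of the arrays was mixed within the list. Penk and Meis2 were highest and lowest on the arrays named for Dlx1. Calb2 and Npy were highest on array 4 of WKY SON, at 10.39 and 9.06, and neither was highest on array 2 of SHR SON. The part that these cells and the place of dissection had in the differences of Gad1 and Slc32a1 was not tested.

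Slc17a6, the vesicular glutamate transporter of hypothalamic glutamate neurones, differed less. Its signals were 9.73, 9.65, 9.91, 9.86 and 9.78 in WKY PVN and 9.56, 9.61, 9.38, 9.77 and 9.52 in WKY SON. In SHR they were 9.95, 9.60, 9.65, 9.52 and 9.66 in the PVN and 9.16, 9.35, 9.37 and 9.36 in the SON. The nuclei overlapped in WKY and did not overlap in SHR. The difference was -0.22 (SE 0.10, adjusted p = 0.1) in WKY, with a 95% interval of -0.42 to -0.02, and -0.37 (SE 0.10, adjusted p = 0.00993) in SHR, where the gene passed the test. Whether the nuclei differed more in SHR than in WKY was tested by the interaction, which was -0.15 (SE 0.14, adjusted p = 0.895).

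**Figure D3:**
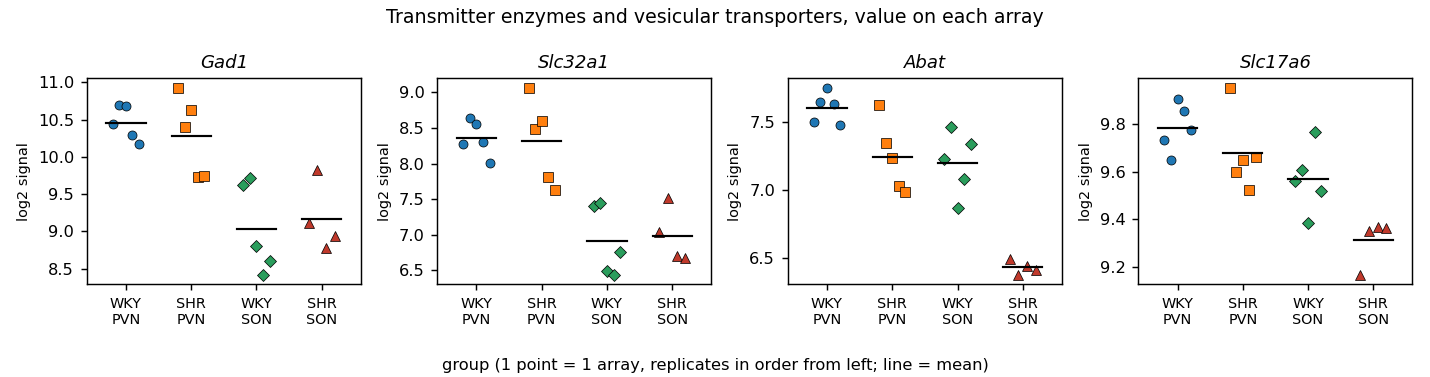
Log2 signal (y axis, arbitrary units) of Gad1, Slc32a1, Abat and Slc17a6 on each of the 19 arrays (1 point each, replicates in order from the left) in the 4 groups on the x axis, with the group mean as a line. Gad1 and Slc32a1 are lower in the SON groups, and for Abat the 4 SHR SON arrays lie between 6.38 and 6.49, under all WKY SON arrays.

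Upstream sequences of genes that differed in the same direction in both strains are shown to give the context of this shared difference. RefSeq promoters of the rat assembly GRCr8 were matched by symbol for 38 of the 52 members and for 8 of the 11 genes called in both strains. Printed are the 250 bases before the annotated start, 5′ to 3′ on the strand of the gene, with capitals for the GC box, the letters GGGCGG on either strand, matches of which can overlap. Gad1 was read at chr3:75777202-75777451 and Slc32a1 at chr3:167686995-167687244, both on the plus strand, Gabbr2 at chr5:66083696-66083945 on the minus strand and Gabrb2 at chr10:27439543-27439792 on the plus strand.
Gad1: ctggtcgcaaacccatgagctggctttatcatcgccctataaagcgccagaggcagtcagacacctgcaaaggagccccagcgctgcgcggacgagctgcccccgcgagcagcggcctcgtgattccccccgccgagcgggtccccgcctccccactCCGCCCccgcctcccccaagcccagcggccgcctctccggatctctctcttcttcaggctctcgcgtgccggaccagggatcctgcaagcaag
Slc32a1: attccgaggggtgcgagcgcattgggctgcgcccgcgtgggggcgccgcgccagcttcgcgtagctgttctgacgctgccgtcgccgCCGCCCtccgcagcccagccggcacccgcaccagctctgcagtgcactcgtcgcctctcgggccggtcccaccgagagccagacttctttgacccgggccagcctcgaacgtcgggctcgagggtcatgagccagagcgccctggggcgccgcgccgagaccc
Gabbr2: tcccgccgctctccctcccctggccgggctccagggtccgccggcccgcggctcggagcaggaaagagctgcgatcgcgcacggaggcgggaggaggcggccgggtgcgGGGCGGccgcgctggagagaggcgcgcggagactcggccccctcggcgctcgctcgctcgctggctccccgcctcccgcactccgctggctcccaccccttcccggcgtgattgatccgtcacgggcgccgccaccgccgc
Gabrb2: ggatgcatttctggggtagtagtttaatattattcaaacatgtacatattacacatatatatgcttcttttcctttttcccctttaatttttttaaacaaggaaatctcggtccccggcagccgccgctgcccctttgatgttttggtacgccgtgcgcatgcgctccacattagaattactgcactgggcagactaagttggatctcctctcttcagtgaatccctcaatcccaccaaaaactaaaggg

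Gad1, Slc32a1 and Gabbr2 each held 1 GC box in this window and Gabrb2 held 0. The GC box was found in 17 of 38 members (44.7%), in 6 of the 8 genes called in both strains (all but Gabrb2, higher in the SON, and Grik1, lower there) and in 30.47% of 33469 promoters of the same length. The median GC content was 59.6% in the members and 51.2% in all promoters. On either strand the cAMP response element TGACGTCA was found in 0 of 38 members and 1.59% of all promoters, the E-box CACGTG in 0 and 5.59%, and the homeodomain core TAATTA in 1 and 4.86%. These matches describe letters in a window and not binding of a factor.

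Of the 2 GABA-B subunits 1 was lower in the SON in each strain. Gabbr2, the subunit that couples the receptor to G proteins, had 9.29, 9.40, 9.49, 9.44 and 9.27 in WKY PVN and 9.79, 9.28, 9.43, 9.07 and 9.24 in SHR PVN. Its SON values were 8.40, 8.46, 7.94, 8.35 and 8.21 in WKY and 7.98, 8.08, 7.97 and 7.83 in SHR. All SON arrays lay below all PVN arrays in each strain. Its signal was 2.15-fold lower in the SON of WKY, a difference of -1.11 (SE 0.12, adjusted p = 7.83e-07), and 2.63-fold lower in SHR, a difference of -1.40 (SE 0.13, adjusted p = 6.28e-08).

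Gabbr1, the subunit that binds GABA, had means of 10.70 ± 0.11 and 10.48 ± 0.13 in the PVN of WKY and SHR (SD, n = 5 each), and of 10.55 ± 0.12 (n = 5) and 10.30 ± 0.10 (n = 4) in the SON. SON minus PVN was -0.15 (SE 0.09, adjusted p = 0.23) in WKY and -0.18 (SE 0.10, adjusted p = 0.165) in SHR, and neither passed the test. Its probe sets disagreed, however, since another one was lower in the SON by -0.57 in WKY (adjusted p = 0.0016) and -0.83 in SHR (adjusted p = 6.34e-05), and the other one that was tested gave -0.26 (adjusted p = 0.154) and -0.42 (adjusted p = 0.0317).

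Of the 6 GABA-A subunits tested Gabrb2 was higher and Gabre lower in the SON in both strains. Gabrb2 encodes the beta 2 subunit, which helps to form the GABA binding site. It had 8.82, 8.41, 7.97, 8.71 and 8.62 in WKY PVN and 8.36, 8.81, 8.69, 8.70 and 8.47 in SHR PVN. On the SON arrays it had 9.41, 9.58, 9.35, 9.74 and 9.48 in WKY and 9.09, 9.46, 9.33 and 9.33 in SHR. All SON arrays were above all PVN arrays in both strains. The signal was 2.01-fold higher in WKY, a difference of 1.01 (SE 0.14, adjusted p = 1.42e-05), and 1.62-fold higher in SHR, a difference of 0.70 (SE 0.15, adjusted p = 0.00122).

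Gabre, the epsilon subunit, had 6.21, 6.36, 6.42, 6.29 and 6.14 in WKY PVN and 6.31, 6.20, 6.38, 6.47 and 6.03 in SHR PVN. SON signals were 5.31, 5.29, 5.71, 5.44 and 5.29 in WKY and 5.30, 5.40, 5.31 and 4.38 in SHR. The nuclei did not overlap, and SHR SON array 4 was lower than the other 3 of its group. The difference was -0.88 (SE 0.15, adjusted p = 2.30e-04) in WKY and -1.18 (SE 0.16, adjusted p = 1.47e-05) in SHR.

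Gabra5, the alpha 5 subunit, which was chosen for mention after its values had been seen, was lower in the SON in SHR by -0.64 (SE 0.15, adjusted p = 0.00275), and had -0.17 (SE 0.14, adjusted p = 0.388) in WKY. The interaction for Gabra5 was -0.47 (SE 0.20, adjusted p = 0.693). For Gabra2, the alpha 2 subunit, the difference was -0.02 (SE 0.11, adjusted p = 0.894) in WKY and 0.16 (SE 0.12, adjusted p = 0.323) in SHR, with 95% intervals of -0.26 to 0.21 and -0.08 to 0.41. Gabrb1, the beta 1 subunit, had 0.04 (SE 0.10, adjusted p = 0.834) and -0.21 (SE 0.11, adjusted p = 0.155), with intervals of -0.18 to 0.25 and -0.44 to 0.02.

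**Figure D4:**
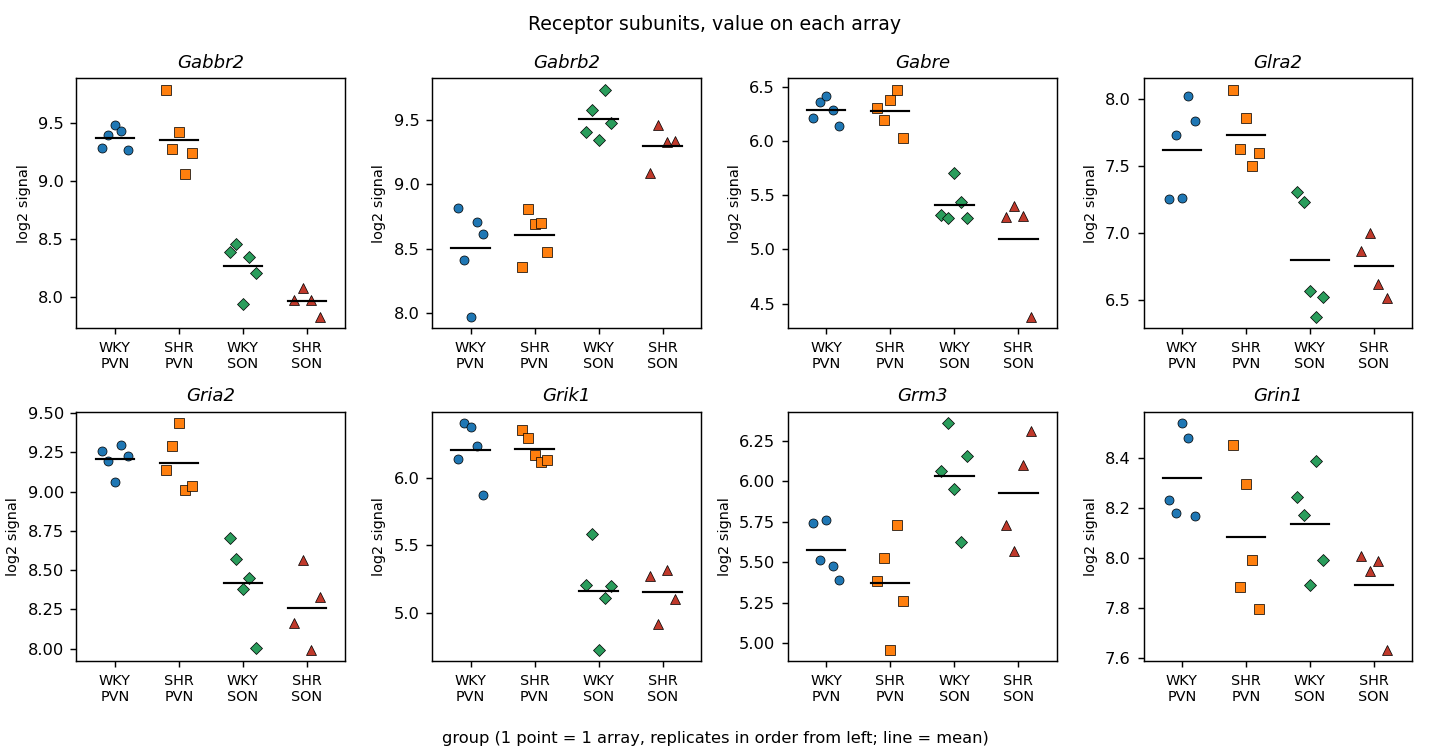
Log2 signal (y axis, arbitrary units, a separate scale in each panel) of 8 receptor subunits on each of the 19 arrays (1 point each) in the 4 groups on the x axis, with the group mean as a line. Gabbr2, Gabre, Gria2 and Grik1 are lower and Gabrb2 higher on every SON array than on the PVN arrays of the same strain, while the nuclei overlap for Grin1.

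Both glycine receptor subunits tested were lower in the SON. Glra2, the alpha 2 subunit, had 7.26, 7.74, 7.26, 8.02 and 7.84 in WKY PVN and 8.07, 7.63, 7.86, 7.50 and 7.60 in SHR PVN. The SON arrays gave 7.30, 7.23, 6.57, 6.37 and 6.52 in WKY and 6.87, 7.0, 6.62 and 6.52 in SHR. In WKY SON arrays 1 and 2 were higher than the other 3 and array 1 overlapped the PVN, and in SHR the nuclei did not overlap. The difference was -0.82 (SE 0.19, adjusted p = 0.00273) in WKY and -0.98 (SE 0.20, adjusted p = 9.47e-04) in SHR, and the second Glra2 probe set gave -1.63 (adjusted p = 3.94e-04) and -1.20 (adjusted p = 0.00752).

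Glrb, the beta subunit that anchors glycine receptors at synapses through gephyrin, had 8.94, 8.81, 8.94, 8.86 and 8.68 in WKY PVN and 8.93, 8.58, 8.60, 8.04 and 8.08 in SHR PVN. Values in the SON were 8.45, 8.66, 8.29, 8.46 and 8.15 in WKY and 8.0, 8.27, 7.82 and 7.90 in SHR. The nuclei did not overlap in WKY and overlapped in SHR. The difference was -0.45 (SE 0.15, adjusted p = 0.03) in WKY and -0.45 (SE 0.16, adjusted p = 0.037) in SHR. These calls were thin, since leaving out single arrays ended them, and the second Glrb probe set was called in WKY (-0.61) but not in SHR (-0.28, adjusted p = 0.086).

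Among the AMPA receptor subunits Gria2 was lower in the SON in both strains. Gria2, whose edited subunit makes AMPA receptors impermeable to calcium, had 9.26, 9.20, 9.06, 9.29 and 9.22 in WKY PVN and 9.14, 9.29, 9.44, 9.01 and 9.03 in SHR PVN. Signals in the SON were 8.70, 8.57, 8.38, 8.45 and 8.0 in WKY and 8.16, 8.56, 7.99 and 8.33 in SHR. The nuclei did not overlap in either strain. The difference was -0.79 (SE 0.13, adjusted p = 1.04e-04) in WKY and -0.92 (SE 0.14, adjusted p = 3.12e-05) in SHR, and the second Gria2 probe set gave -0.38 (adjusted p = 0.0728) and -0.73 (adjusted p = 0.00171).

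Gria3, another AMPA subunit, was lower in the SON of WKY by -0.39 (SE 0.14, adjusted p = 0.0487) and had -0.30 (SE 0.15, adjusted p = 0.143) in SHR, a call in WKY that 7 of 17 alternatives kept. Gria1, the AMPA subunit whose trafficking is tied to synaptic plasticity, had 5.50, 5.53, 5.96, 5.51 and 5.94 in WKY PVN and 5.37, 5.46, 2.34, 5.76 and 4.22 in WKY SON. WKY SON array 3 lay far below the others of its group. SON minus PVN was -1.06 (SE 0.42, adjusted p = 0.0689) in WKY and -0.58 (SE 0.45, adjusted p = 0.349) in SHR, with intervals of -1.93 to -0.18 and -1.51 to 0.35, and did not pass the test.

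Of 3 kainate receptor subunits tested Grik1 was lower in the SON in both strains. It had 6.14, 6.41, 6.37, 6.24 and 5.88 in WKY PVN and 6.36, 6.29, 6.17, 6.12 and 6.13 in SHR PVN. In the SON it had 5.21, 5.58, 4.73, 5.11 and 5.20 in WKY and 5.28, 4.92, 5.32 and 5.10 in SHR. The nuclei did not overlap, and the SON means of 5.17 and 5.15 were under the limit for testing. The signal was 2.06-fold lower in the SON of WKY, a difference of -1.04 (SE 0.13, adjusted p = 6.65e-06), and 2.09-fold lower in SHR, a difference of -1.06 (SE 0.14, adjusted p = 1.02e-05).

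Grik5, a high-affinity kainate subunit, was lower in the SON of WKY by -0.37 (SE 0.12, adjusted p = 0.0246) and had -0.30 (SE 0.12, adjusted p = 0.0727) in SHR. Grik2, a kainate subunit named after its values had been seen, was lower in the SON of SHR by -0.40 (SE 0.15, adjusted p = 0.0459), a call that 3 of 15 alternatives kept, and had -0.18 (SE 0.14, adjusted p = 0.345) in WKY.

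None of 4 NMDA receptor subunits tested passed the test between the nuclei by limma in either strain, and 1 in each strain had an unadjusted p under 0.05. In WKY this was Grin2c, higher in the SON by 0.25 (adjusted p = 0.0851) without overlap, where 12.3% of all tested genes were higher without overlap. In SHR it was Grin3b, lower in the SON by -0.46 (adjusted p = 0.0833) and admitted through its PVN signal alone. Grin1, the obligatory subunit of NMDA receptors, had 8.23, 8.18, 8.54, 8.48 and 8.17 in WKY PVN and 8.24, 8.17, 7.89, 8.39 and 7.99 in WKY SON. In SHR it had 8.45, 7.88, 8.30, 7.99 and 7.80 in the PVN and 8.01, 7.95, 7.99 and 7.63 in the SON. The nuclei overlapped in both strains, and the 95% interval of the difference was -0.46 to 0.09 in WKY and -0.49 to 0.10 in SHR. For Grin2b, the subunit with slow decay, the intervals were -0.45 to 0.36 and -0.65 to 0.21.

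Grm3, a metabotropic receptor coupled to inhibitory G proteins and known from astrocytes as well as neurones, was higher in the SON in both strains. It had 5.74, 5.51, 5.76, 5.47 and 5.39 in WKY PVN and 5.38, 5.52, 4.96, 5.73 and 5.26 in SHR PVN. In the SON the signals were 6.06, 6.36, 5.95, 5.63 and 6.16 in WKY and 5.73, 5.57, 6.10 and 6.31 in SHR. The nuclei overlapped in both strains. The difference was 0.45 (SE 0.16, adjusted p = 0.0406) in WKY, kept by 6 of 16 alternatives, and 0.56 (SE 0.17, adjusted p = 0.0175) in SHR. Of 10 astrocyte markers 3 were higher in the SON and 0 lower in each strain, with medians of 0.05 in WKY and 0.17 in SHR and a summed signal of 18790 to 21203 in WKY PVN against 21524 to 28014 in WKY SON, and their part in the Grm3 difference was not tested.

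Grm8, a presynaptic metabotropic receptor, had 6.95 ± 0.54 (SD, n = 5) in WKY PVN and 6.78 ± 0.47 (SD, n = 5) in WKY SON. The difference of -0.17 (SE 0.30, adjusted p = 0.709) in WKY and of -0.75 (SE 0.32, adjusted p = 0.0823) in SHR did not pass the test. In SHR it passed under 4 of 16 alternatives, among them the replicate number as a block, with -0.79 (adjusted p = 0.0132).

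Arrays of both nuclei did not overlap for 11 tested members in WKY and for 10 in SHR. Over all tested genes 12.3% were higher and 11.4% lower without overlap in WKY, and 10.8% higher and 13% lower in SHR.

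No tested member passed the test between SHR and WKY in the PVN. There 0 of 28 members were higher and 0 lower by limma, where 0.89% of all tested genes were higher and 0.788% lower, and 4 members, all lower in SHR, had an unadjusted p under 0.05. All 28 intervals lay within 1 log2 unit of 0, with ends between -0.73 and 0.72, so that differences over 2-fold were outside them. The median difference of the 28 was -0.01, beside -0.03 over all genes, and 15 had a lower mean in SHR. Grin2b and Grm4 passed here through their SHR PVN signal alone, so that the filter set their higher mean in SHR. The 14 neuronal markers had a median of -0.19 and those of ependyma 0.37, with 2 of 7 ependymal markers higher in SHR. For the markers of magnocellular neurones, cells of both nuclei, and of parvocellular neurones, cells of the PVN, the median was -0.40 in the PVN. Of 7 tested 6 had an unadjusted p under 0.05, all lower in SHR. Among them 1 was called, the transcription factor Sim1 with -0.94 (SE 0.10, adjusted p = 2.82e-05). Their summed signal was 14668 to 16669 in WKY PVN and 10942 to 13776 in SHR PVN. The magnocellular hormone genes Avp and Oxt differed by -0.29 (SE 0.12, adjusted p = 0.268) and -0.25 (SE 0.13, adjusted p = 0.439). Pou3f2 of this list had group means of at most 1.94. The part of these cells in the differences of members was not tested.

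The 4 members with an unadjusted p under 0.05 in the PVN were Glrb, Abat, Gabra2 and Gabbr1. Glrb differed by -0.40 (SE 0.15, adjusted p = 0.253) and Abat by -0.35 (SE 0.13, adjusted p = 0.206). SHR PVN arrays 4 and 5 were the lowest for Glrb, as they were for Map2 and Mobp. The second Glrb probe set was called, with -0.57 (adjusted p = 0.0158), so that the Glrb probe sets disagreed. Without SHR PVN array 1, the array with the lowest median signal, 2 members passed, Abat with -0.45 (adjusted p = 0.0314) and Glrb with -0.52 (adjusted p = 0.0438). Gabra2 differed by -0.25 (SE 0.10, adjusted p = 0.295) with no overlap of the strains, where 1.91% of all genes were lower without overlap, and Gabbr1 by -0.23 (SE 0.10, adjusted p = 0.356).

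In the SON 1 of 23 tested members differed between the strains, lower in SHR, and 0 were higher, where 1.06% of all tested genes were higher and 2.17% lower. This was Abat, GABA transaminase, the mitochondrial enzyme that breaks GABA down. It had 7.23, 7.46, 6.87, 7.08 and 7.34 in WKY SON and 6.49, 6.38, 6.44 and 6.41 in SHR SON. In the PVN it had 7.50, 7.64, 7.75, 7.63 and 7.47 in WKY and 7.63, 7.35, 7.23, 7.03 and 6.99 in SHR. In the SON all SHR arrays lay below all WKY arrays, and in the PVN the strains overlapped through SHR PVN array 1. Over all genes 6.79% were lower in SHR SON without overlap.

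Abat was 1.7-fold lower in SHR SON, with group means of 6.43 ± 0.05 (SD, n = 4) and 7.19 ± 0.23 (SD, n = 5) and a difference of -0.76 (95% interval -1.03 to -0.50, adjusted p = 0.0046 from limma). It did not reach a 2-fold difference, and the methods' test without moderation gave an adjusted p of 0.067. The strain differences of both nuclei were not shown to differ, with an interaction of -0.41 (SE 0.18, adjusted p = 0.691). Abat was also lower in the SON than in the PVN, by -0.40 (SE 0.12, adjusted p = 0.0182) in WKY and -0.81 (SE 0.13, adjusted p = 7.48e-05) in SHR, and in WKY the adjusted p was 0.055 without WKY SON array 3. Its other probe sets were below the limit for testing.

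The 5 members with an unadjusted p under 0.05 in the SON, Abat included, were all lower in SHR. The others were Gabbr1 (-0.26, adjusted p = 0.178), Gabbr2 (-0.30, adjusted p = 0.181), Glrb (-0.40, adjusted p = 0.11) and Slc17a6 (-0.26, adjusted p = 0.194). Of the 23 tested members 19 had a lower mean in SHR, beside 60.4% of all tested genes, and their median was -0.21, beside -0.05 over all genes. Gabre and Gria4 passed through their WKY SON signal alone, with SHR SON means of 5.10 and 5.26 under the limit. Their lower mean in SHR was therefore set by the filter. The neuronal markers had a median of -0.21 with 0 of 13 tested called, and the meningeal markers a median of 0.56 with 3 of 9 higher in SHR. Those of magnocellular and parvocellular neurones had a median of -0.27, with 3 of 6 tested at an unadjusted p under 0.05, all lower in SHR, and Sim1 called at -0.97 (SE 0.17, adjusted p = 0.00965), and their summed signal was 10484 to 18616 in WKY SON and 10819 to 13189 in SHR SON. Of the inhibitory forebrain markers Calb2 was lower in SHR SON by -0.43 (SE 0.10, adjusted p = 0.0392), and no gene of the other marker lists was called between the strains in the SON. Their part in the member differences was not tested.

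Intervals in the SON lay within 1 log2 unit of 0 for 20 of 23 members, and their ends ran from -2.02 to 0.76. For Gad1 the interval of SHR minus WKY was -0.62 to 0.27 in the PVN and -0.51 to 0.76 in the SON, and for Slc32a1 it was -0.52 to 0.44 and -0.46 to 0.61. For Grin1 it was -0.53 to 0.06 and -0.52 to 0.03. In the interaction 0 of 28 members were higher and 0 lower by limma, where 0.0196% of all tested genes were higher and 0.0978% lower, and 2 members had an unadjusted p under 0.05.

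**Figure D5:**
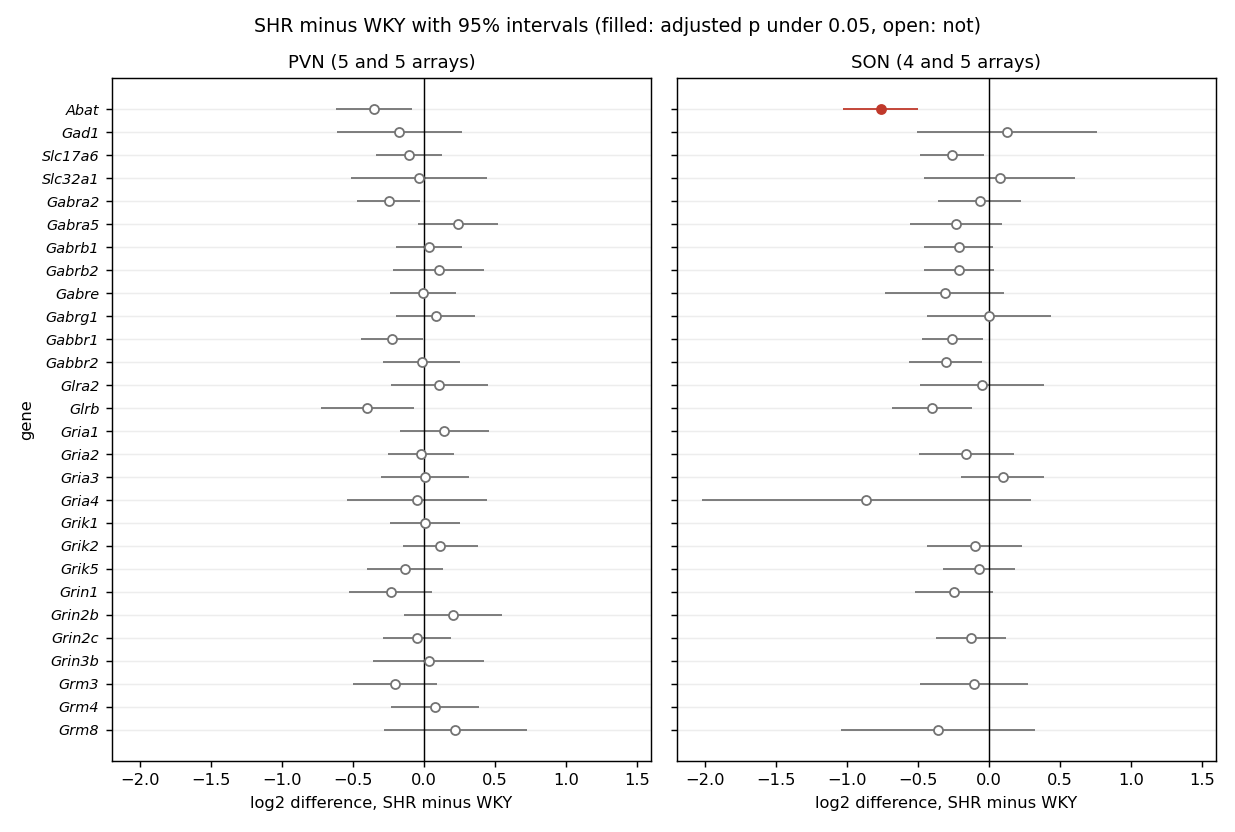
Difference of log2 signal, SHR minus WKY (x axis), of the tested genes in the PVN (left, 28 genes) and the SON (right, 23 genes), with points for the limma estimate, bars for its 95% interval and filled points for an adjusted p under 0.05. Abat in the SON is the only filled point, and 19 of the 23 SON estimates lie to the left of 0. Gabre and Gria4 are among the 19 and passed the limit for testing through WKY SON alone.

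Genes that work with these receptors were followed in lists chosen for their function. Their counts stand beside the shares of all tested genes, which between SON and PVN were 14.7% higher and 13.6% lower in WKY and 14.7% and 16.3% in SHR, and between SHR and WKY 1.06% higher and 2.17% lower in the SON and 0.89% and 0.788% in the PVN. Of 5 genes of GABA and glycine uptake on the array 3 were tested between the nuclei, and 1 was higher in the SON in each strain and 0 lower. This was Slc6a13, a GABA transporter known from the meninges, with an adjusted p of 2.10e-07 in WKY and 7.51e-07 in SHR. It was 1.91 to 3.52 in WKY PVN and 1.80 to 4.36 in SHR PVN, with 2 arrays of each at the floor, and 6.77 to 7.32 in WKY SON and 6.68 to 8.24 in SHR SON. It was tested through its SON signal alone, and with the PVN near the floor no size of the difference is given. It moved with the meningeal markers, of which 9 of 9 were higher in the SON, and their part was not tested.

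Of 10 genes of glutamate uptake and the glutamate-glutamine cycle 2 were higher and 0 lower in the SON in WKY, and 2 higher and 1 lower in SHR, beside the 14.7% higher and 13.6% to 16.3% lower of all genes. Slc7a11, the cystine and glutamate exchanger, was higher by 1.14 in WKY and 1.23 in SHR, and Slc38a2, a glutamine transporter, by 0.53 and 0.92. Slc38a3, another glutamine transporter, was lower by -0.59 in SHR. Between the strains 0 of 10 passed in the PVN and 1 was lower in SHR SON, the neutral amino acid transporter Slc1a4 (-0.43, adjusted p = 0.0222).

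Chloride transporters set whether GABA-A and glycine receptors inhibit or excite a neurone. Of 8 such transporters and their kinases tested 1 was lower and 1 higher in SHR SON, where the shares of all genes were 2.17% and 1.06%, and 0 differed in the PVN. The one lower was Slc12a5, the neuronal chloride extruder KCC2, with group means of 9.15 ± 0.13 (SD, n = 4) in SHR SON and 9.55 ± 0.09 (SD, n = 5) in WKY SON, a difference of -0.40 (SE 0.10, adjusted p = 0.0469). The one higher was Slc12a4, the widely expressed KCC1, with 6.94 ± 0.31 (SD, n = 4) and 6.29 ± 0.20 (SD, n = 5), a difference of 0.65 (SE 0.15, adjusted p = 0.0392). Slc12a5 had 9.23, 9.26, 8.97 and 9.16 on the SHR SON arrays and 9.69, 9.56, 9.47, 9.55 and 9.49 on the WKY SON arrays. All SHR SON arrays lay below all WKY SON arrays for Slc12a5 and above them for Slc12a4.

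Between the nuclei Slc12a5 was lower in the SON by -0.40 in WKY (adjusted p = 0.0119) and -0.59 in SHR (adjusted p = 8.46e-04). Slc12a4 was higher there by 0.65 and 0.93, and Stk39, the kinase SPAK that regulates these transporters, by 0.46 and 0.32. Clcn3, a chloride and proton exchanger of vesicles, was lower by -0.26 in WKY. The direction of Slc12a4 was that of the meningeal markers and the direction of Slc12a5 that of the neuronal markers with SHR in the SON, and their part was not tested.

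Of 14 scaffolds of inhibitory synapses and partners of GABA receptors 4 were higher and 0 lower in the SON in WKY, 2 were higher and 3 lower in SHR, and 0 passed between the strains in either nucleus by limma, where 1 in the PVN and 6 in the SON had an unadjusted p under 0.05. The SHR counts are near the shares of all genes, 14.7% higher and 16.3% lower. Gabarap, which binds GABA-A receptors in transit to the membrane, was higher by 0.31 in WKY and 0.36 in SHR, and Rdx, radixin, which anchors alpha 5 receptors, by 0.32 and 0.62. Ubqln1, a ubiquitin-like protein that stabilises GABA-A receptors, was lower by -0.49 in SHR, and Nxph1, a neurexin ligand of inhibitory synapses, by -0.62.

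Of 26 auxiliary proteins and scaffolds of glutamate receptors tested 2 were higher and 10 lower in the SON in WKY, where 14.7% of all genes were higher and 13.6% lower. In SHR 1 was higher and 13 lower, where the shares were 14.7% and 16.3%. Cbln1, a secreted ligand of delta receptors, was lower by -1.99 in WKY and -2.46 in SHR, and Nptx1, a pentraxin that clusters AMPA receptors, by -1.83 and -2.04. Camk2a, a kinase of excitatory synapses, was lower by -1.34 and -1.02, and Dlg4, the scaffold PSD-95, by -0.64 and -0.73. Cacng3, an auxiliary subunit of AMPA receptors, was higher in the SON by 0.76 in WKY and 0.51 in SHR.

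Between the strains 3 of 26 of these auxiliary genes were lower in SHR SON and 0 higher, where 2.17% of all genes were lower and 1.06% higher, and 0 of 24 tested passed in the PVN. Homer2, a scaffold that links metabotropic glutamate receptors to calcium stores, had 6.0, 5.14, 5.25, 5.46 and 5.41 in WKY SON and 3.75, 4.18, 3.76 and 4.53 in SHR SON. All SHR arrays lay below all WKY arrays. The difference was -1.40 (SE 0.20, adjusted p = 0.00189), and Homer2 was tested through its WKY signal alone, since its SHR SON mean of 4.06 was under the limit. In the PVN Homer2 was just under the limit for testing, with 5.31 ± 0.28 in WKY and 4.03 ± 0.53 in SHR. Nptxr, the neuronal pentraxin receptor, differed by -0.58 (SE 0.12, adjusted p = 0.0235) and Cacng3 by -0.46 (SE 0.10, adjusted p = 0.0242). In the interaction 0 genes of the 5 lists passed.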

How the data were processed

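RNA of the PVN and SON of WKY rats and SHR was measured on Affymetrix GeneChip arrays of the rat genome. The deposited values are intensities, MAS5 signals per the submitters' processing notes, which the authors made from the scanned arrays on a linear scale. The methods describe 5 pooled nuclei for a group, read here as a pool for each array, and the GeneSpring normalisation and present calls of the methods were not used here. All 19 arrays were grouped by their labels, no pair held the same values (0 pairs), and no correlation between arrays exceeded 0.984. The number of arrays limits the precision.

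Signals under 3.76, the 10th percentile of all signals, were set to that floor (log2 1.91), log2 transformed and centred on the median of each array, and 57 control probe sets were left out. Probe sets were tested where 1 or more group means were no lower than 5.32, the median over all probe sets. Platform symbols of 20758 probe sets were updated by Entrez identifier, after which 20826 probe sets had 1 symbol, 436 had several and 9780 had none. Each gene was represented by the probe set with the highest mean. Names ending in _a_at mark probe sets that can detect more than 1 transcript.

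Tests were made with limma (version 3.58.1, R 4.3.3, lmFit and eBayes, two-sided, Benjamini-Hochberg over all probe sets tested, called at an adjusted p under 0.05 with no fold limit). The strains were compared within each nucleus. A fit of all 4 groups gave SON minus PVN in each strain and the interaction, in which the PVN strain difference is subtracted from that of the SON. Percentages over all genes count 1 probe set for each gene. Described in full are members called between the strains, the largest differences between the nuclei in WKY and a fixed set of main subunits and transmitter genes, with up to 6 called genes of each pathway list. The members and lists were chosen with earlier results of these data known. Cell type marker lists were measured, and not all of those that differed between groups are given. Simulated arrays carrying set changes were used to check the procedure. Python 3.11.15 with matplotlib 3.10.9 made the figures, and promoters came from RefSeq (GRCr8). Alternatives covered centring, quantile normalization, log2(signal + 16), filters, the groups in the fit, the methods' t-test, a limit of 2-fold, the choice of probe set, the replicate number as a block and fits without 1 array at a time. The methods' t-test was the Welch test, run over the probe sets tested here and not over genes already cut at 2-fold.

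The RT-qPCR, immunohistochemistry and gene transfer experiments were not analysed here, and some receptor genes are not reported here.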

Additional observations from a re-analysis of the deposited data

Results flagged for a closer look

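Single arrays stood apart from the others of their group for 6 of the named members, by a gap test that chance passes in about 1 of 20 groups, and 9 of 112 groups passed it. Gabre was at 4.38 on SHR SON array 4, with the other 3 arrays between 5.30 and 5.40. The same array was lowest for Grin1 at 7.63 (others 7.95 to 8.01) and for Grin2a at 3.25 (others 4.56 to 4.82). Grin2a was also at 3.37 on WKY PVN array 5 (others 4.41 to 4.80). Grin2b was at 4.52 on WKY PVN array 1 (others 5.22 to 5.50) and at 5.10 on SHR PVN array 2 (others 5.41 to 5.54). Grm5 was at 4.04 on SHR PVN array 5 (others 4.56 to 4.72) and at 4.88 on SHR SON array 2 (others 4.23 to 4.27). Slc17a6 was at 9.16 on SHR SON array 1 (others 9.35 to 9.37). Without SHR SON array 4 the difference of Gabre between the nuclei in SHR was -0.94 (adjusted p = 7.65e-06).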

How the results depend on the processing

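Of 28 differences of named members that passed the test, 19 passed under all alternatives run for them, 9 did not under at least 1, and 0 reversed. The limit of 2-fold and the choice of probe set were not among these alternatives. The differences of Gad1, Slc32a1, Gabbr2, Gabrb2, Gabre, Glra2, Gria2 and Grik1 between the nuclei passed under all of these alternatives in both strains. Those of Glra2 and Gria2 in both strains, of Gabre in WKY and of Gabrb2 in SHR did not reach 2-fold. The 9 that did not pass included Abat between the strains in the SON (adjusted p = 0.067 by the methods' t-test) and Abat in WKY between the nuclei (adjusted p = 0.055 without WKY SON array 3). The rest were Glrb and Grm3 between the nuclei in both strains, Gria3 and Grik5 in WKY and Grik2 in SHR, with adjusted p up to 0.16. Between the strains in the PVN the count of members called was 0, and it was 1 with the values as deposited and with quantile normalization (Abat in both), 1 when any probe set of a gene counted (Glrb), and between 0 and 2 with single arrays left out, with 2 without SHR PVN array 1 (Abat and Glrb). In the SON the count was 1, and it was 2 with the stricter filter (Abat and Glrb, the latter with -0.40 and an adjusted p of 0.0414), 0 with the methods' t-test and 0 with a limit of 2-fold. Leaving out single arrays gave 1 in the SON, between 9 and 13 between the nuclei in WKY and between 11 and 14 in SHR. With a limit of 2-fold the 13 calls in WKY and the 14 in SHR became 5 in each. Arrays share a number with no label that ties them to the same rats, and not every pair correlated above 0.1, so that no pairing was taken. Correlations of their deviations from the group means ranged from -0.23 to 0.08 between the strains in the PVN, from -0.01 to 0.10 in the SON and from -0.01 to 0.00 between the nuclei in WKY, with 0 of 5, 3 of 4 and 0 of 5 arrays matching best with their own number. Between the nuclei in SHR they were 0.18, 0.10, 0.03 and 0.09, with 3 of 4. With the replicate number as a block the counts were 0 in the PVN, 1 in the SON, 11 in WKY, 14 in SHR and 0 in the interaction, where Gria3 and Grm3 in WKY and Grik2 in SHR were no longer called and Grm8 in SHR was, and it changed no other call. In the interaction the count was 0 under every alternative. The 10th percentile floor and the limit for testing leave 24 members without a test, and weak signals of MAS5 vary most between arrays.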
